A study of Mus musculus with 10 samples.

Results

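Levels of 8 mouse genes for organic anion and cation transporters of the proximal tubule were read across 10 single-cell libraries of control and injured kidney cortex. The members were taken by name: Slc22a6, Slc22a8, Slc22a7, Slco1a1, Slc22a2, Slc47a1, Abcc2 and Abcc4. All 8 had a row in all 10 tables, which together name 28808 genes. Their levels were read by day in barcodes gated as proximal convoluted or proximal straight tubule on the raw counts of other marker genes, none of which is a member.

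The libraries came from mice aged 4 weeks. The control was 1 library of normal kidneys, and the injured kidneys gave 1 library each on days 1, 2 and 4 and 2 libraries each on days 7, 11 and 14. The labels name no strain, sex, kind of injury, agent or number of animals, and they do not say whether the libraries of a day came from separate animals, so p-values measure only the spread between these libraries, which may be technical. Cells were captured by Drop-seq, which ties each cell's RNA to a barcoded bead and sequences the 3' end of the cDNA.

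The proximal tubule clears drugs, toxins and metabolites from blood in steps. Uptake carriers of the basolateral membrane bring organic anions and cations into the cell, driven for the OAT anion carriers by exchange against dicarboxylates and for the OCT cation carriers by the membrane voltage. Carriers of the apical membrane, some driven by ATP and some by proton exchange, pass them on into the urine, and the convoluted and straight parts of the tubule are known to differ in which carriers they hold.

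The promoters of 4 members are shown because their levels moved in different ways: Slc22a6 and Slc22a8, which are neighbours, fell by day 7 and rose by day 11 in convoluted sums, Slco1a1 stayed below the control, and Abcc4 moved the opposite way. Each line is the 250 bases before the RefSeq start on the gene's own strand (GRCm38.p6), with matches to either of 2 motifs in capitals. The stretches lie at chr19:8617746-8617995 on the plus strand for Slc22a6, chr19:8592932-8593181 on the plus strand for Slc22a8, chr6:141946963-141947212 on the minus strand for Slco1a1 and chr14:118706220-118706469 on the minus strand for Abcc4, the upstream of its 2 RefSeq entries.
Slc22a6: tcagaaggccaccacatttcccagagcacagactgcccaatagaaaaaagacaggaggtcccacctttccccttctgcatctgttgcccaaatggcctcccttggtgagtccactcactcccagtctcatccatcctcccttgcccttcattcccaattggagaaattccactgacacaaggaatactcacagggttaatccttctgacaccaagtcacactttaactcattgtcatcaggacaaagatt
Slc22a8: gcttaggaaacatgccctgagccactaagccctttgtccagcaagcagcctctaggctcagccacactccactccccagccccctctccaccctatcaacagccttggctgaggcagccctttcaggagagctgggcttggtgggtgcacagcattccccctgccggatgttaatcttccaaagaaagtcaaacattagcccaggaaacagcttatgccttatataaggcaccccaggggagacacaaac
Slco1a1: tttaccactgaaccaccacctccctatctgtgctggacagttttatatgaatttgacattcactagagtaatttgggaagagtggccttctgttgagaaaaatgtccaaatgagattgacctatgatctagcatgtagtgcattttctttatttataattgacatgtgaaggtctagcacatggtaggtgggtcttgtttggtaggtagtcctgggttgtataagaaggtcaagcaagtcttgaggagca
Abcc4: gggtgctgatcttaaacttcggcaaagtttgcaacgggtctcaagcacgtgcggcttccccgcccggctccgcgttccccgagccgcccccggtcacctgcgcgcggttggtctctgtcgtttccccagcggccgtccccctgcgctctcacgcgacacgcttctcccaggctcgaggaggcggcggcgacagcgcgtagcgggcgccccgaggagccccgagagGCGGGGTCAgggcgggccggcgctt
The motifs searched on both strands were CAAAGTCCA, a form of the HNF4 site, and TGACNNNGC, the core of the antioxidant response element. No match overlapped another. TGACNNNGC lay in the promoters of Abcc2 and Abcc4 and in 10.1% of 27025 mouse promoters of the same length, and CAAAGTCCA lay in none of the 6 members with an entry and in 0.381% of all promoters. Of the 4 stretches shown only that of Abcc4 thus holds capitals. A match describes the letters only, and the lack of one says only that these letters are not in this window.

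In GENCODE M21 (GRCm38) Slc22a6 lies at chr19:8618039-8628299 and Slc22a8 at chr19:8591254-8611835, both on the plus strand, 6203 bases apart with no annotated gene between them. Slc22a7 lies at chr17:46432183-46438457 on the minus strand, Slco1a1 at chr6:141907282-141946962 on the minus strand and Slc22a2 at chr17:12584132-12628488 on the plus strand. Slc47a1 lies at chr11:61343401-61378345 on the minus strand, Abcc2 at chr19:43782192-43840740 on the plus strand and Abcc4 at chr14:118482692-118706219 on the minus strand. Slco1a1 overlaps Gm22036 and Abcc4 overlaps Mir6391 on the same strand, and Abcc4 overlaps Gm49033 and Gm23302 on the other. Reads from the same strand cannot be told apart, nor can those from the other here, because no source states that counting used strand. Reads shared with close relatives, such as Slco1a4 and Slco1a6 for Slco1a1, are likewise uncertain.

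The tables held 64803 barcodes and 7091848 to 31632205 UMIs (unique molecular identifiers, 1 per captured RNA molecule) per library, and 52797 barcodes were kept. At most 11 barcodes were shared by any of the 45 pairs of libraries. The proximal gate took at least 5 UMIs of 10 general proximal markers and left out barcodes with markers of another class. Of proximal barcodes with at least 5 UMIs of the segment markers, those with at most 20% straight UMIs were called convoluted and those with at least 50% straight. The convoluted gate held 236 to 2285 barcodes per library. The straight gate held 99 to 1431 in 7 libraries and only 16, 13 and 19 on days 1 and 2 and in day 7 replicate 1. These 3 sums were left out of every test and of the straight levels given below. Y-linked Ddx3y stood at 45.0 to 80.6 UMIs per 1000000 (CPM) and Xist at no more than 0.899 CPM in all 10 libraries. That bears on Slco1a1 and Slc22a7, which are known to differ between the sexes in mouse kidney.

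Sums of counts per library were compared with edgeR's quasi-likelihood test over all genes, and a gene was called at a Benjamini-Hochberg adjusted p under 0.05. The test scaled libraries by TMM, which sets the bulk of genes to no change. On day 7 against control this placed the median log2 change of all genes at 0.06 in convoluted and -0.01 in straight sums, against 0.74 and 0.86 when counts were scaled by totals alone. In the same libraries the median mitochondrial share of a barcode was 23.6% in the control and 3.64% and 4.32% on day 7. Calls split into 1537 higher and 1597 lower in convoluted, 2007 and 2194 in straight, and 3115 and 3307 in whole library sums, against 3903 and 583, 4829 and 715, and 7594 and 1416 by totals. From day 7 to day 11 they split into 1852 higher and 1710 lower, 1935 and 1629, and 3888 and 3931, against 881 and 4466, 793 and 4367, and 1888 and 8394. Values by totals are given beside a result where they end a call. Levels in CPM are counts per 1000000 of the sum, with no such factor.

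All 8 members passed the filter on low counts in every main fit, the alternatives described below aside. On day 7 against control 7 members fell and Abcc4 rose in the whole library sums, where 36.7% of 17495 genes were called and 18.9% were called lower. The same split held in convoluted sums, where 25.2% of 12452 genes were called and 12.8% were called lower. In straight sums 6 fell, Abcc4 rose and Slc22a8 was not called, against 35.3% of 11903 genes called and 18.4% called lower. By totals, with or without mitochondrial genes, the calls of Abcc2 and Slc47a1 in convoluted sums and of Slc47a1 in straight sums were lost. The members' median log2 change was -3.71 in the whole library, -2.30 in convoluted and -2.27 in straight sums, against 0.03, 0.06 and -0.01 over all genes tested. Control is 1 library and is taken to vary like the replicated days, and the day 7 straight sum is 1 library too.

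From day 7 to day 11 the same 7 members rose and Abcc4 fell in the whole library sums, with 44.7% of genes called and 22.2% called higher. In convoluted sums 6 rose and Abcc4 fell, with 28.6% called and 14.9% called higher, and Abcc2 (log2 change 0.57, SE 0.31) was not called except without day 7 replicate 1 (0.94, adjusted p = 0.036). In straight sums 7 rose and Abcc4 fell, with 29.9% called and 16.3% called higher. By totals the call of Slc47a1 was lost in convoluted sums, and those of Slc22a8, Slc47a1 and Abcc2 in straight sums. With mitochondrial genes left out of the totals, only the straight call of Slc47a1 was lost. The comparison of days 7 and 11 shares its day 7 libraries with the one above. In the whole library the smaller share of proximal barcodes on day 7, 11.3% and 12.9% of those kept against 60.5% in the control, and less RNA per cell cannot be told apart, so the gated sums are described below.

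**Figure D1:**
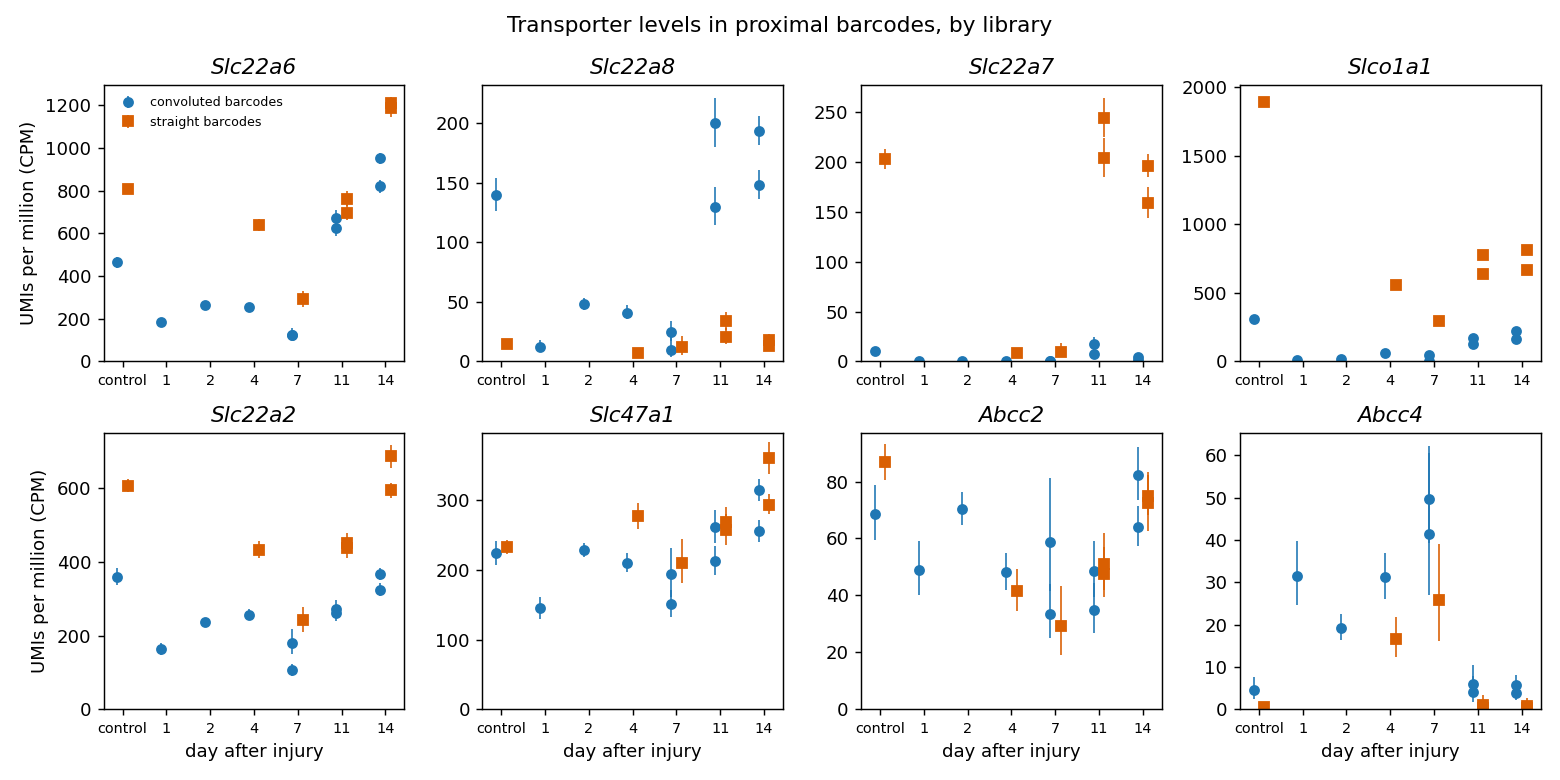
Level of each transporter in UMIs per 1000000 of the summed counts, for convoluted (circles) and straight (squares) barcodes, 1 point per library with its exact Poisson 95% interval, by day after injury. Slc22a6, Slc22a8, Slco1a1 and Slc22a2 have their lowest points on days 1 to 7 and Abcc4 its highest, and straight sums with fewer than 20 barcodes are not drawn.

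Slc22a6 encodes OAT1, the basolateral exchanger that takes up p-aminohippurate and many acidic drugs. In convoluted barcodes it stood at 464 CPM in the control, 183, 263 and 256 on days 1, 2 and 4, 126 in both day 7 libraries, 624 and 671 at day 11, and 820.4 and 953 at day 14. Day 7 was lowest, and all libraries of days 11 and 14 lay above the control. In straight barcodes it stood at 807 CPM in the control, 638 and 292 on days 4 and 7, 698 and 763 at day 11, and 1211 and 1186 at day 14. Again day 7 was lowest, while day 11 lay below the control and day 14 above it. On day 7 the log2 change was -2.56 in convoluted (SE 0.22, adjusted p = 1.39e-05) and -2.34 in straight sums (SE 0.24, adjusted p = 2.96e-07). From day 7 to day 11 it was 2.98 (SE 0.20, adjusted p = 2.32e-06) and 2.06 (SE 0.22, adjusted p = 8.29e-07).

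Slc22a8 encodes OAT3, a basolateral anion carrier of wider range whose gene neighbours that of OAT1. The convoluted level was 139.8 CPM in the control, 12.5, 47.9 and 41.0 on days 1, 2 and 4, 9.54 and 24.5 on day 7, 129.7 and 199.8 at day 11, and 148 and 194 at day 14. The libraries of days 1 to 7 lay below all others, and those of days 11 and 14 lay on both sides of the control. The log2 change was -3.54 on day 7 (SE 0.38, adjusted p = 6.21e-05) and 3.71 from day 7 to day 11 (SE 0.35, adjusted p = 1.32e-05). The day 1 level was 0.0891 times the control (exact 95% interval 0.0584 to 0.131, counting error only), the day 2 level 0.342 times and the day 4 level 0.293 times. Among the single libraries day 1 was thus the lowest for this gene, and its level on day 2 was higher than on either day 7 library.

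In straight barcodes Slc22a8 stood at only 14.9 CPM in the control, 7.01 and 11.7 on days 4 and 7, 20.5 and 33.6 at day 11, and 12.9 and 17.7 at day 14. Barcodes of classes that should lack the gene held at most 7.67 CPM (principal), 12.04 CPM (endothelial) and 29.2 CPM (macrophage, a sum of few UMIs, with a median of 0.124 over the libraries), so the lower straight values overlap theirs. The day 7 change of -1.22 (SE 0.51, adjusted p = 0.0739) was not called. It was called with 1 marker UMI fewer (-1.51), which brings in 25 straight barcodes of day 7 replicate 1. A mitochondrial share of at most 25% (-1.31), no filter on low counts (-1.30) and leaving out day 14 replicate 1 (-1.22) also gave a call. The call of 1.95 from day 7 to day 11 (SE 0.48, adjusted p = 0.0042) was lost by totals (1.21, adjusted p = 0.0606). It held by totals without mitochondrial genes (1.34). It was also lost without day 11 replicate 2 (1.53), with DESeq2 (1.92, adjusted p = 0.0807) and with stricter segment shares, at most 10% and at least 70% (1.76, adjusted p = 0.32).

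Slc22a7 encodes OAT2, a carrier of anions and of guanine nucleotides and related compounds, and it was higher in straight than in convoluted barcodes. In straight ones it stood at 203 CPM in the control, 7.97 and 9.39 on days 4 and 7, 204 and 244 at day 11, and 196 and 159 at day 14. Days 4 and 7 lay far below every other library with at least 20 straight barcodes, and days 11 and 14 lay on both sides of the control. On day 4 this was 25 UMIs in 387 barcodes, a level 0.0393 times the control (exact 95% interval 0.0254 to 0.0582), and on day 7 it was 8 UMIs in 99 barcodes. The log2 change in straight sums was -5.30 on day 7 (SE 0.39, adjusted p = 5.87e-09) and 5.31 from day 7 to day 11 (SE 0.38, adjusted p = 6.7e-09). In size these were the largest changes of any member in the straight sums.

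In convoluted barcodes Slc22a7 stood at 10.4 CPM in the control, at 0 on day 1 and in both day 7 libraries, at 0.123 on day 2 and 0.458 on day 4, at 7.01 and 17.2 at day 11, and at 4.70 and 1.34 at day 14. Principal barcodes held at most 3.90 CPM, endothelial ones at most 8.54 and macrophage ones at most 17.1 with a median of 0, so the convoluted values overlap those of classes that should lack the gene. With 3 counts assumed over both day 7 libraries, the convoluted level would be 7.54-fold lower on day 7 than in the control, taking the control's 30 UMIs as exact. The exact 95% upper limit of the ratio, which covers counting error in both groups, was 0.174. The call on day 7 was lost without day 7 replicate 2 (adjusted p = 0.0575), which leaves 1 day 7 library, also at 0.

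Slco1a1 encodes OATP1A1, a carrier of bulky anions such as steroid conjugates whose kidney level in mice depends on androgen. In straight barcodes it stood at 1893 CPM in the control, 556 and 292 on days 4 and 7, 640.4 and 779 at day 11, and 814 and 664 at day 14. The control lay above every injured library, day 14 included. In convoluted barcodes it stood at 313 CPM in the control, 13.3, 17.2 and 59.1 on days 1, 2 and 4, 6.36 and 49.7 on day 7, 126 and 169 at day 11, and 222 and 162 at day 14. The order was the same, with the control above all other libraries, and the day 7 libraries differed by more than their counting intervals (1.73 to 16.3 and 39.2 to 62.1). On day 7 the log2 change was -3.57 in straight (SE 0.27, adjusted p = 6.97e-09) and -3.92 in convoluted sums (SE 0.49, adjusted p = 0.000169). Between days 7 and 11 it was 2.02 (SE 0.24, adjusted p = 2.85e-06) and 2.77 (SE 0.45, adjusted p = 0.000637).

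Slco1a1 was the only member called on day 14 against control in the straight sums, at a log2 change of -1.57 (SE 0.20, adjusted p = 3.28e-05), or 2.96-fold lower, with 19.0% of genes called. By totals it was -1.36 (adjusted p = 0.000135). In convoluted sums the day 14 change was -0.82 (SE 0.44, adjusted p = 0.317) and was not called, though it was without either day 7 library (adjusted p = 0.0326 and 0.0322).

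Slc22a2 encodes OCT2, the basolateral uptake carrier for cations such as creatinine and metformin. In straight barcodes it stood at 606 CPM in the control, 432 and 242 on days 4 and 7, 438 and 449.5 at day 11, and 594 and 685 at day 14. The convoluted level was 359.6 CPM in the control, 162, 237 and 257 on days 1, 2 and 4, 181 and 106 on day 7, 260.5 and 273 at day 11, and 324 and 367 at day 14. Day 1 lay between the day 7 libraries, day 4 lay just under day 11, and the control lay between the day 14 libraries in both gates. On day 7 the log2 change was -2.20 in straight (SE 0.24, adjusted p = 6.59e-07) and -2.04 in convoluted sums (SE 0.28, adjusted p = 0.000301). From day 7 to day 11 it was 1.61 (SE 0.21, adjusted p = 1.24e-05) and 1.55 (SE 0.25, adjusted p = 0.000546).

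Slc47a1 encodes MATE1, the apical proton exchanger that carries those cations into the urine. In convoluted barcodes it stood at 223 CPM in the control, 145, 228 and 210.2 on days 1, 2 and 4, 194 and 150.4 on day 7, 212 and 261 at day 11, and 255 and 314 at day 14. In straight barcodes it stood at 232 CPM in the control, 277 and 210.1 on days 4 and 7, 257 and 269 at day 11, and 293 and 359.7 at day 14. Its CPM varied least of all members in both gates, and the straight day 7 library overlapped the control in its counting interval (180.4 to 243 against 222 to 243). The TMM-scaled change on day 7 was -1.07 in convoluted (SE 0.25, adjusted p = 0.00887) and -1.02 in straight sums (SE 0.24, adjusted p = 0.00242). By totals it was -0.39 (adjusted p = 0.266) and -0.14 (adjusted p = 0.631), so neither call held. The convoluted call was also lost without the exclusion of other classes (-0.67, adjusted p = 0.0703) and the straight one with the stricter segment shares (-0.45, adjusted p = 0.317). The return to day 11 was 1.09 (SE 0.22, adjusted p = 0.00255) and 1.06 (SE 0.22, adjusted p = 0.00099), and by totals 0.47 (adjusted p = 0.104) and 0.32 (adjusted p = 0.216). By totals without mitochondrial genes the convoluted return was called (0.63, edgeR adjusted p = 0.0369) and the straight one was not (0.45). The day 7 calls were lost by those totals too (-0.70 and -0.42). With the stricter shares the straight value was 0.56 (adjusted p = 0.183).

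Abcc2 encodes MRP2, an apical ATP-driven pump for conjugated anions. The convoluted level was 68.5 CPM in the control, 48.9, 70.3 and 48.1 on days 1, 2 and 4, 58.8 and 33.6 on day 7, 48.6 and 34.9 at day 11, and 82.5 and 64.0 at day 14. The day 7 and day 11 libraries overlapped one another. In straight barcodes it stood at 86.8 CPM in the control, 41.4 and 29.3 on days 4 and 7, 51.2 and 47.7 at day 11, and 75.0 and 72.4 at day 14, so that day 7 was lowest and the control highest. The day 7 change was -2.44 in straight sums (SE 0.30, adjusted p = 3.89e-06). In convoluted sums it was -1.34 (SE 0.34, adjusted p = 0.0132), and it was not called by totals (-0.65, adjusted p = 0.148), without day 7 replicate 2 (-0.89, adjusted p = 0.095) or without the exclusion of other classes (-0.90, adjusted p = 0.0771). The straight return to day 11 was 1.49 (SE 0.30, adjusted p = 0.0008), and it was not called by totals (0.75, adjusted p = 0.0534) or with the stricter shares (1.24, adjusted p = 0.127). It was called by totals without mitochondrial genes (0.88).

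Abcc4 encodes MRP4, an ATP-driven apical exporter of anions, urate and cyclic nucleotides, and it was the only member called higher on day 7 in each of the 3 kinds of sum. In convoluted barcodes it stood at 4.50 CPM in the control, 31.6, 19.3 and 31.1 on days 1, 2 and 4, 41.3 and 49.7 on day 7, 4.01 and 5.91 at day 11, and 3.91 and 5.75 at day 14. Every library of days 1 to 7 lay above every other library. In straight barcodes it stood at 0.477 CPM in the control, 16.6 and 25.8 on days 4 and 7, 0.975 and 0.404 at day 11, and 0.350 and 0.735 at day 14, from 4 UMIs in the control and 22 on day 7. The log2 change on day 7 was 2.68 in convoluted (SE 0.42, adjusted p = 0.000682) and 4.80 in straight sums (SE 0.78, adjusted p = 8.08e-05). Between days 7 and 11 it was -2.61 (SE 0.35, adjusted p = 0.000146) and -4.48 (SE 0.78, adjusted p = 0.000198). The convoluted level was 7.02 times the control on day 1 (exact 95% interval 3.85 to 13.8), 4.30 times on day 2 and 6.92 times on day 4.

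**Figure D2:**
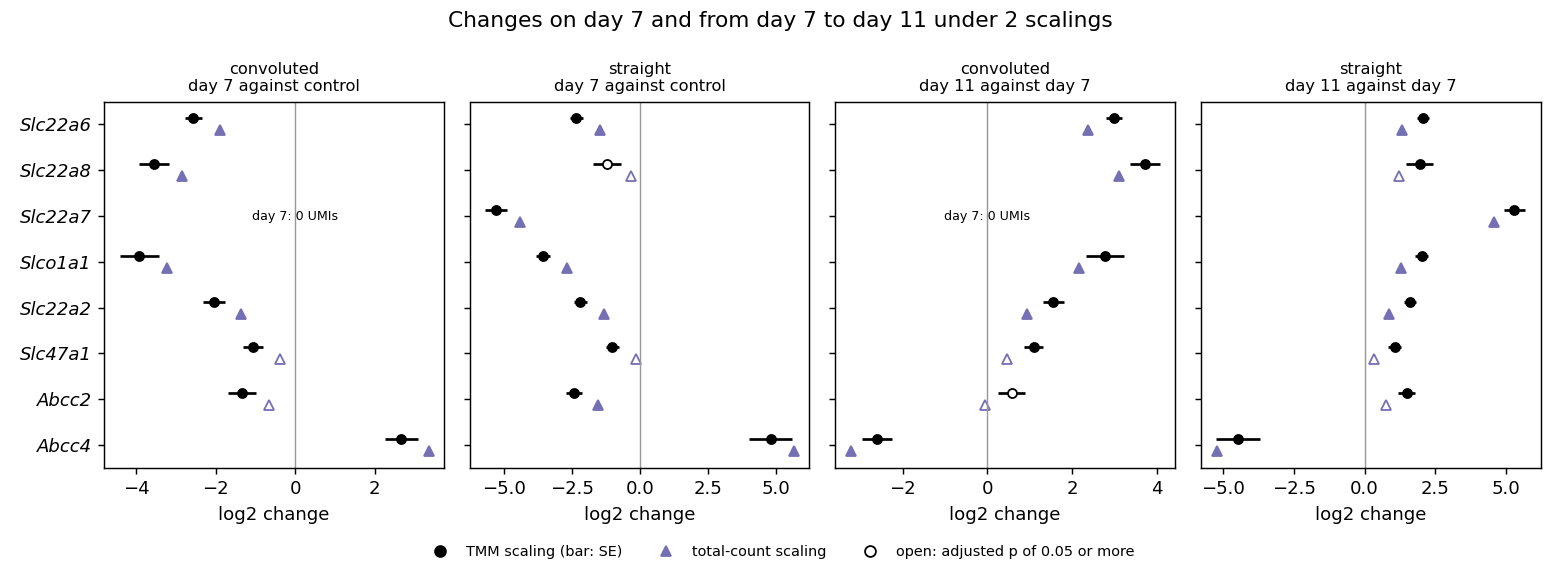
log2 change of each transporter on day 7 against control and from day 7 to day 11, in convoluted and straight sums, by TMM scaling (circles, bars are the SE) and by total counts (triangles). Open symbols were not called, Slc22a7 in convoluted sums is not drawn because day 7 held 0 UMIs, and Slc47a1 is open by totals in all 4 panels.

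Where each gene's UMIs lay set Abcc4 apart as well. In the control 93.8% to 98.2% of the UMIs of the other 7 members fell in the proximal gate, which held 54.7% of all UMIs. For Abcc4 it was 13.2% in the control, 62.1% at day 4, 25.3% and 35.6% on day 7, and 18.4% to 33.3% on days 11 and 14. The gate itself held 59.1% of all UMIs at day 4, 15.4% and 22.8% on day 7 and 58.2% in day 11 replicate 1. The share of Abcc4 thus lay above that of the gate on day 7, near it at day 4, and below it in the control and day 11 replicate 1. In principal cell barcodes of the collecting duct Abcc4 stood at 15.7 CPM in the control and at 22.3 and 22.9 on day 7. In endothelial barcodes it stood at 8.54 CPM in the control and at 34.0 and 38.5 on day 7, and in macrophage barcodes at 14.3 and 10.9 on day 7. The control held 0 UMIs in 47 macrophage barcodes with 65551 UMIs in all, too few to set a level beside these. In principal and endothelial barcodes the day 7 levels thus lay above the control, with no test run there. The principal values ran from 11.7 to 25.8 CPM over all 10 libraries, so a library of another day lay above both of day 7.

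Barcodes with at least 2 UMIs of Havcr1, the injury marker KIM-1, but too few proximal marker UMIs for the gate numbered 262, 22 and 394 on days 1, 2 and 4, and 274 and 176 on day 7. These barcodes are left out by the proximal gate, and at most 1 was found in any other library. None of them was excluded for markers of another class. Abcc4 in them stood at 40.0, 59.5, 48.9, 55.2 and 57.1 CPM, from 21, 3, 41, 29 and 27 UMIs. These values lay above the convoluted sums of the same libraries, which held 71, 157, 136, 26 and 77 UMIs of it, with no test run. All day 2 values of the Havcr1 barcodes rest on 50393 UMIs in 22 barcodes. Slc47a1 stood at 51.4, 139, 93.1, 57.1 and 82.4 CPM and Slc22a2 at 36.2, 59.5, 70.4, 51.4 and 50.7. Both lay below the convoluted sums. Slc22a6 stood at 47.6, 99.2, 27.5, 1.90 and 4.23 CPM, and Slc22a8 and Slc22a7 at no more than 19.8 and 1.90. Slco1a1 stood at 3.81, 0, 32.2, 30.5 and 38.0 CPM and Abcc2 at 26.7, 59.5, 25.1, 13.3 and 19.0. Macrophage barcodes of the same day 7 libraries held 3.44 and 2.74 CPM of Slc22a2, 9.73 and 4.97 of Slc47a1, 1.72 and 3.98 of Slco1a1, and 2.86 and 1.74 of Abcc2.

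**Figure D3:**
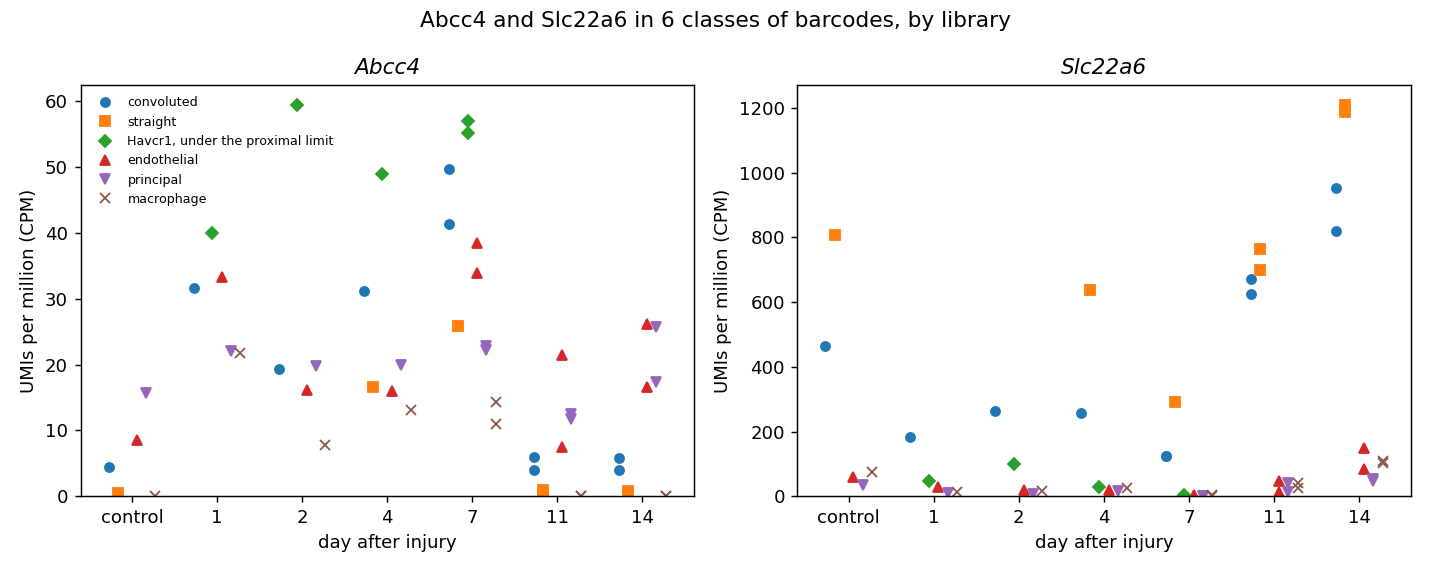
Level of Abcc4 and Slc22a6 in UMIs per 1000000 of the summed counts in 6 classes of barcodes, 1 point per library, by day after injury. Abcc4 is highest in Havcr1 barcodes and rises in several classes, while Slc22a6 stands above 100 CPM in convoluted and straight barcodes throughout and at no more than 149.9 CPM in any other class.

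In principal barcodes, which should lack OAT1, Slc22a6 stood at 33.5 CPM in the control, 1.52 and 1.94 on day 7, and 51.9 and 46.0 at day 14. Endothelial barcodes held up to 149.9 CPM and macrophage barcodes up to 108 CPM of it, both below the convoluted levels of days 11 and 14.

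Convoluted and straight sums of the same library were compared in the 7 libraries with at least 20 barcodes in both, with library as a block. Of 9945 genes tested 43.8% were called, and 7 of 8 members were. Slc22a7 was higher in straight sums by a log2 difference of 4.92 (SE 0.24, adjusted p = 2.41e-09), Slco1a1 by 2.44 (SE 0.14, adjusted p = 8.46e-09), Slc22a2 by 0.89 (SE 0.07, adjusted p = 2.43e-07), Slc22a6 by 0.68 (SE 0.13, adjusted p = 0.000919) and Slc47a1 by 0.28 (SE 0.07, adjusted p = 0.00423). Slc22a8 was lower in straight sums, with a difference of -2.91 (SE 0.17, adjusted p = 1.25e-08), as was Abcc4, with -1.63 (SE 0.31, adjusted p = 0.000849). Abcc2 (0.14, SE 0.10, adjusted p = 0.284) was not called. Keeping barcodes with markers of other classes brought 22 straight barcodes each of day 2 and of day 7 replicate 1 into the fit, and the calls of Slc22a2, Slc22a6 and Slc47a1 were then lost. The Slc47a1 call was also lost with the stricter segment shares (0.21, adjusted p = 0.182) and by totals without mitochondrial genes (0.17, adjusted p = 0.0641).

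Levels along 5 bins of the straight share of segment UMIs showed 4 shapes. In the control Slc22a8 fell from 150 CPM at a share of 0 to 10% to 114, 55.9, 16.1 and 4.85 at the highest share, and it fell along the bins in both libraries of days 11 and 14 as well. Slc22a7 rose from 6.08 CPM to 18.1, 52.3, 151 and 371 in the control, and Slc22a2 from 342 to 419, 499.9, 587 and 677. Slc22a7 was highest in the last bin in all 4 libraries of days 11 and 14 as well, and Slc22a2 in 3 of them, the exception being day 11 replicate 2 (453 and then 447 CPM). Slco1a1 rose from 148 CPM to 985, 1811, 2083 and then 1373 in the control, and Slc22a6 from 397 to 648, 830.1, 923 and then 471. Both thus peaked before the last bin, and Slc22a6 did so in all 4 libraries of days 11 and 14 too, ending at 316, 548, 539 and 212 CPM from peaks of 943, 1055, 1547 and 1837. With straight barcodes taken only from a share of 70% and convoluted ones up to 10%, the Slc22a6 difference turned to -0.36 (adjusted p = 0.316). Abcc2 and Slc47a1 varied less along the bins, from 70.7 to 99.9 and from 180.5 to 259 CPM in the control.

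**Figure D4:**
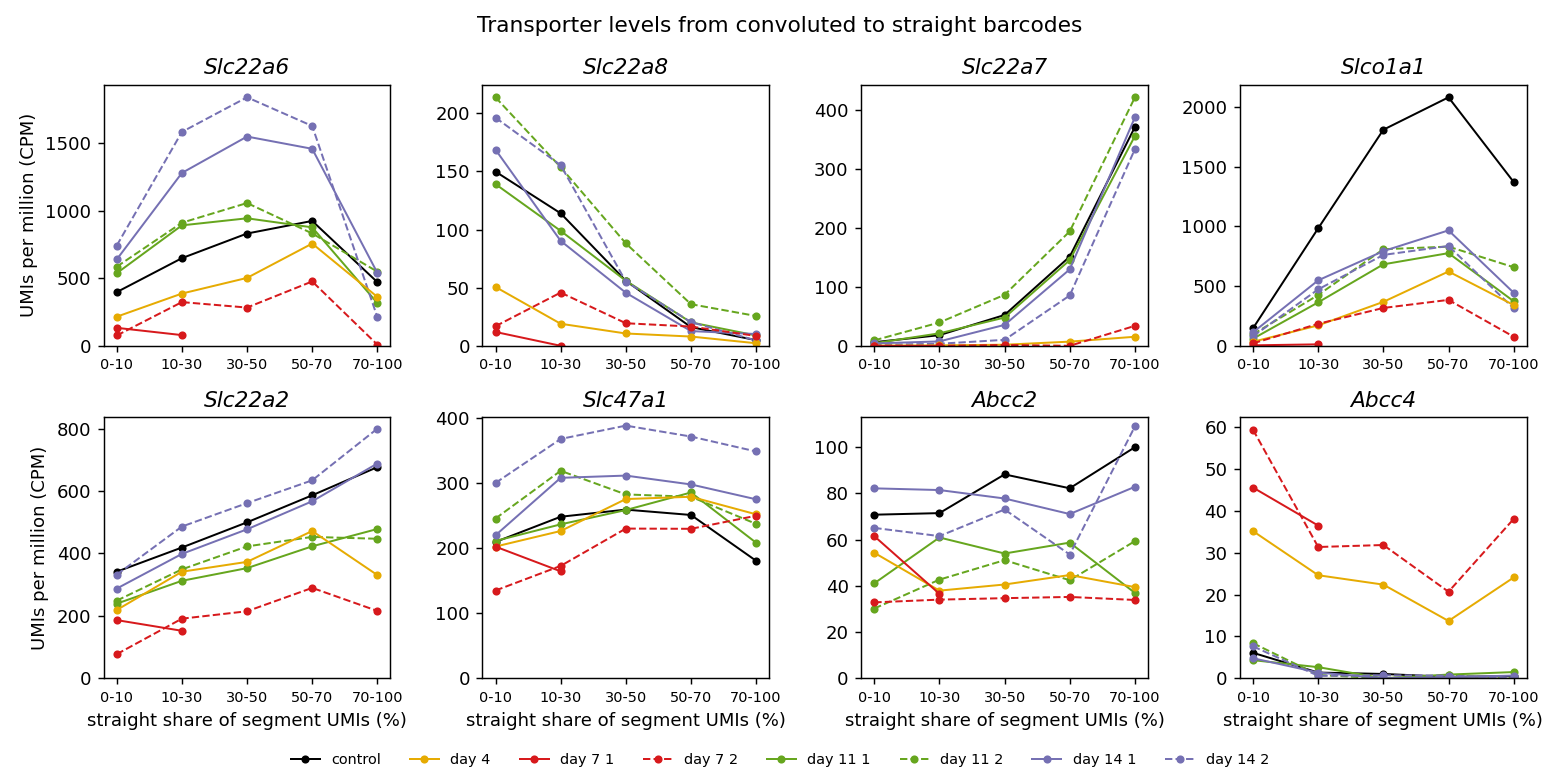
Level of each transporter in UMIs per 1000000 along 5 bins of the straight share of segment marker UMIs, 1 line per library of the control and days 4, 7, 11 and 14 (replicate 2 dashed). Slc22a8 falls and Slc22a7 rises along the bins in the control and on days 11 and 14, Slc22a6 and Slco1a1 peak before the last bin in those libraries, and bins with fewer than 20 barcodes are not drawn.

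The injured libraries up to day 7 held fewer straight barcodes than the control. The most convoluted bin (share up to 10%) was therefore also read alone. In it Slc22a6 stood at 397 CPM in the control, 133 and 76.3 on day 7, and 537 and 585 at day 11. Slco1a1 stood at 148, at 3.97 and 20.4, and at 59.8 and 96.4 CPM, and Slc22a8 at 150, at 11.9 and 16.9, and at 139 and 214. Abcc4 stood at 6.08, at 45.6 and 59.4, and at 4.32 and 8.38 CPM. In this bin too the day 7 libraries lay outside the range of the control and day 11 for all 4 genes. The other members are not given for this bin, and in all convoluted barcodes the day 7 and day 11 libraries of Abcc2 overlapped. Straight markers fell too, such as Slc7a13 from 393 CPM in the control whole library to 5.08 and 63.3 on day 7. The bin thus cannot tell a convoluted cell from a straight one that lost these markers.

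Whether the change from day 7 to day 11 differed between the segments was tested as an interaction, for which 3.28% of genes were called. Slc22a6 was the only member called. Its change was smaller in straight sums by a log2 difference of -0.97 (SE 0.16, adjusted p = 0.000116). Day 7 has 1 library in this test. When gates with looser rules let 22 or 25 straight barcodes of day 7 replicate 1 in, the difference was -0.54 (adjusted p = 0.606) and -0.60 (adjusted p = 0.392), and the call was lost. With the stricter segment shares it was 2.90 (adjusted p = 0.321), the opposite direction.

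From day 11 to day 14, in the whole library sums Abcc2 (1.02, SE 0.17, adjusted p = 0.00335), Slc22a2 (0.80, SE 0.20, adjusted p = 0.019) and Slc47a1 (0.70, SE 0.21, adjusted p = 0.0437) rose, with 18.0% of genes called. Slc22a6 was higher by 1.09 (SE 0.36, adjusted p = 0.0587) and was not called, though it was without either day 7 library (adjusted p = 0.00664 and 0.00621) and with the replicate block (1.06, adjusted p = 0.0234). The calls of Slc22a2 and Slc47a1 were lost without day 11 replicate 1 or either day 14 library, and that of Slc47a1 also by totals (0.55, adjusted p = 0.0903). No member was called by edgeR in convoluted sums, where 5.34% of genes were called, 3 members had an unadjusted p under 0.05 and DESeq2 called 0. Without day 7 replicate 1 Abcc2 (0.75, adjusted p = 0.043) and Slc22a7 (-2.11, adjusted p = 0.0388) were called, and both were likewise called without day 7 replicate 2. In straight sums Slc22a6 rose (0.64, SE 0.15, adjusted p = 0.00749) and Slc22a8 fell (-0.95, SE 0.27, adjusted p = 0.0234), with 14.2% of genes called. Without either day 14 library neither was called, nor was Slc22a6 without the exclusion of other classes (0.67, adjusted p = 0.219) or with 1 marker UMI fewer (0.66, adjusted p = 0.189). Slc22a8 was not called without day 11 replicate 2 (-0.51, adjusted p = 0.423), with DESeq2 (-0.91, adjusted p = 0.43) or without the exclusion (-0.96, adjusted p = 0.0694). By totals Abcc2 and Slc22a2 were called higher too.

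On day 14 against control no member was called by edgeR in the whole library sums, where 8.43% of genes were called and 3 members had an unadjusted p under 0.05. None was called in convoluted sums either, where 3.16% of genes were called and 2 members had such a p. DESeq2 called Slc47a1 in the first and Slc22a6 in the second. In the whole library Slc22a6 (1.30) and Slc47a1 (0.95) were called without either day 7 library, and Slc47a1 without either day 11 library. In convoluted sums Slc22a6 was higher by 0.82 (SE 0.22, adjusted p = 0.0642), both day 14 libraries lying above the control, and it was called by totals (0.93, adjusted p = 0.0498) and without either day 7 library. In straight sums 1 member was called, Slco1a1 as described above, and by totals Slc22a6 was called higher as well (0.57, adjusted p = 0.0282).

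A list of 40 other organic ion transporters and relatives was read beside the members. On day 7 in the whole library 24 of the 38 tested fell and 7 rose, with a median log2 change of -1.82, and from day 7 to day 11 22 rose and 8 fell, with a median of 1.49, against 44.7% of all genes called and 22.2% called higher. In convoluted sums 12 of 31 fell and 4 rose on day 7, with a median of -0.77, and in straight sums 16 of 33 fell and 3 rose, with a median of -1.62. Of all genes tested 18.9% were called lower in the whole library, 12.8% in convoluted and 18.4% in straight sums, and the members' medians were -3.71, -2.30 and -2.27. The largest whole library decreases on day 7 were in Slco1a4, a close relative of Slco1a1 (-6.15, SE 0.49, adjusted p = 5.55e-06), Slc22a30 (-4.96, SE 0.44, adjusted p = 1.07e-05) and Slc22a12, the urate carrier URAT1 (-4.85, SE 0.57, adjusted p = 7.12e-05). The largest increases were in Slco2b1 (4.07, SE 0.64, adjusted p = 0.000495), Abcc3, an ATP-driven exporter of the MRP family (3.34, SE 0.35, adjusted p = 3.16e-05), and Slco4a1 (1.94, SE 0.27, adjusted p = 0.000209). Macrophage barcodes made up 0.766% of kept barcodes in the control and 28.0% and 30.5% on day 7, and their part in these increases was not tested.

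From day 7 to day 11 the largest increases of that list were in Slco1a4 (4.85, SE 0.47), Slc22a12 (4.68, SE 0.53) and Slco1a6 (4.67, SE 0.37). The largest decreases were in Abcc3 (-3.09, SE 0.29), Slco5a1 (-2.97, SE 1.05) and Slco2b1 (-2.23, SE 0.47). All 6 were called, with adjusted p-values from 4.14e-06 for Slco1a6 to 0.0389 for Slco5a1.

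Of 13 partner genes, which supply dicarboxylates, anchor the carriers or regulate their genes, 4 fell and 2 rose in convoluted sums on day 7, and 7 of 11 tested fell and 0 rose in straight sums, against 25.2% and 35.3% of all genes called. Those that rose were Cebpb (1.61, SE 0.38), which fell in straight sums (-1.84, SE 0.55), and Nr1i2 (3.56, SE 1.15). Slc13a3, the basolateral dicarboxylate carrier that feeds OAT exchange, fell by 2.64 in convoluted (SE 0.23) and by 3.31 in straight sums (SE 0.27), and it rose by 3.08 and 3.23 by day 11. Hnf4a, a nuclear receptor that regulates proximal tubule genes, fell by 1.40 and 1.65, and Ppara, a receptor for fatty acids, by 2.0 and 2.26. Nfe2l2, which encodes the factor that binds the antioxidant response element, was not called on day 7 (-0.15 and -0.12). Pdzk1 also fell, but it is 1 of the markers of the gate.

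Genes whose profile was most like a member's were found among 4204 genes with a mean log2 CPM of at least 5 in convoluted sums, by the root mean square (RMS) difference of centred log2 CPM over the 10 libraries. For Slc22a6 they were Aadat (0.31), F13b (0.37) and Fahd2a (0.38), against a median of 1.25 over all genes. For Slc22a8 they were Cyp4b1 (0.32), itself a marker of the gate, Ces1e (0.32) and Acy1 (0.34), against 1.73. For Slco1a1 they were Kap (0.59), Erc2 (0.65) and Ces1f (0.69), against 1.95. The members with wide swings thus had nearest genes at larger distances than those with narrow ones: for Slc47a1 these were Gm2a (0.098), Prkcz (0.12) and Galnt14 (0.13), for Slc22a2 Chac2 (0.15), Neu1 (0.15) and Mut (0.15), and for Abcc2 Ankrd13c (0.16), Mcur1 (0.16) and Kif21a (0.16). For Abcc4 they were Btg1 (0.27), Tapbpl (0.27) and Acat3 (0.28), against 1.26. For Slc22a7 they were Lpl (0.54), Slc25a25 (0.79) and Dnajc12 (0.80) in convoluted sums, against 1.89. Over the 7 straight sums they were Lpl (0.96), Slc22a19 (0.98) and Dnajc12 (0.999), against 2.19. The convoluted profile of Slc22a7 rests on few UMIs, with 0 on day 1, 1 on day 2, 2 on day 4 and 0 on day 7, so its matches are uncertain. The profiles share libraries and their scaling. Kap, the most abundant of these transcripts, stood at 31004 CPM in the control convoluted sum, 1121 and 4050 on day 7, 32471 and 30647 at day 11, and 24587 and 22357 at day 14. Among the members the closest pair was Slc22a2 and Slc47a1 (0.30), followed by Slc47a1 and Abcc2 (0.39) and Slc22a2 and Abcc2 (0.43), all members with narrow swings. The farthest pair was Slco1a1 and Abcc4 (3.03).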

How the data were processed

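Per the labels and the deposited tables, the authors' values are whole-number counts of UMIs per gene and barcode from Drop-seq. The submitters' processing notes name Bowtie2 2.2.7 and mm10, and the way genes were counted is not given in the sources used here. A barcode was dropped if it had fewer than 500 UMIs or 500 genes, or more than 50% mitochondrial UMIs. No doublet caller was run, and proximal barcodes with at least 3 UMIs of another class, making 25% or more of their proximal marker UMIs, were left out. Counts were summed per library and gate, leaving out sums of fewer than 20 barcodes, and tested with edgeR 4.0.16 in R 4.3.3 (TMM, quasi-likelihood, Benjamini-Hochberg over all genes tested, all libraries in 1 fit). DESeq2 1.42.0, other scalings, filters, gates and left-out libraries were alternatives. Exact Poisson 95% intervals cover counting error only. Besides the members, the text names the transporters with the 3 largest called changes per direction and the 3 genes most like each member. Members, lists and gates were chosen with earlier results of these data known, and total-count scaling and the stricter segment shares were added after seeing the data.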

Additional observations from a re-analysis of the deposited data

Results flagged for a closer look

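The change of Slc22a6 from day 7 to day 11 differed between convoluted and straight sums in a test of the difference itself: it was smaller in straight sums by a log2 difference of -0.97 (SE 0.16, edgeR adjusted p = 0.000116). Day 7 has 1 straight library in this test, with 99 barcodes. With looser gates, which let straight barcodes of day 7 replicate 1 in, the difference was -0.54 (adjusted p = 0.606) and -0.60 (adjusted p = 0.392), and with stricter segment shares it was 2.90 (adjusted p = 0.321), the opposite direction.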

How the results depend on the processing

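Of the values of single members under the alternatives, 1602 stayed on their side of the threshold, 57 gained a call and 46 lost one. A further 4 lost a call and took the other sign. Of the 1602, 58 that were called in neither fit had the other sign. The 4 lost calls with the other sign were those of Slc22a6 with stricter segment shares (-0.28 from day 11 to day 14 in straight sums, -0.36 between segments and 2.90 for the segment difference) and of Slc47a1 between segments without the exclusion of other classes (-0.039). None of these values was called in its new direction. The causes were not tested. The number of members called stayed within 1.5 times its value in 174 settings and moved in 41. A member not tested in a setting counts there as not called. In the whole library it was 3 from day 11 to day 14, and 1 to 4 on leaving out single libraries. For day 14 against control it was 0, with 1 by DESeq2, 4 with no filter on low counts, 4 with only the groups compared and 0 to 2 on leaving out single libraries. In convoluted sums it was 0 from day 11 to day 14, with 2 with no filter, 2 with only the groups compared, 1 with the replicate block and 0 to 2 on leaving out single libraries. For day 14 against control there it was 0, with 1 by DESeq2, 1 by totals, 2 with no filter, 3 with only the groups compared, 1 with a mitochondrial share of at most 25%, 1 without the exclusion and 0 to 2 on leaving out single libraries. In straight sums it was 8 from day 7 to day 11, with 5 by totals and 5 with stricter shares. From day 11 to day 14 there it was 2, with 1 by DESeq2, 4 by totals with or without mitochondrial genes, 0 without the exclusion, 1 with 1 marker UMI fewer, 0 with stricter shares and 0 to 2 on leaving out single libraries. For day 14 against control there it was 1, with 2 by totals with or without mitochondrial genes. Between segments it was 7, with 4 without the exclusion and 4 with stricter shares, and for the segment difference 1, with 0 under each of those and 0 with 1 marker UMI fewer. Replicate numbers did not pair the libraries (correlations of deviations from -0.06 to 0.08), and with the replicate block from day 7 to day 11 the counts were 8 in whole library and 7 in convoluted sums. With 1 control library and 1 straight library on day 7, those sums have no replicate of their own, and low counts limit precision, such as 8 UMIs of Slc22a7 and 10 of Slc22a8 in straight sums on day 7.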
